A study of Triticum polonicum with 10 samples.

Results

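The genes described here were those whose root transcripts were highest with cadmium and no added iron salt, and were lower wherever an iron salt was given. They numbered 57 of the 21594 genes tested, 0.264%, out of 274924 gene IDs in the series. A gene was tested when its ID lay on subgenome A or B, carried no LC suffix and averaged at least 5 CPM (counts scaled to a common total in each library) over 10 libraries. It was kept when its log2(CPM + 0.5) in the cadmium library without iron salt stood at least 1, a 2-fold step, above each of the 9 other libraries. That step kept 60 genes, and 3 of them were dropped because they were at least 1.5 higher in the library coded Cd than in the library coded CK in all 5 pairs. For 2 of those pairs, in sulfate, the treatment text contradicts the codes, and with those pairs taken by the text no gene is dropped and 60 remain. The members were thus chosen by their levels in all 10 libraries, so the levels below are descriptions and the height of the cadmium library is not a finding.

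Cadmium is a toxic metal with no known nutritional role in wheat, and it enters roots partly through carriers that serve iron, zinc and manganese. Grasses take up iron by releasing phytosiderophores, small chelators of ferric iron, and by importing the complex. A lack of iron induces that system, and the iron status of a root is known to alter how much cadmium it takes up. The files do not pair the IDs with gene names or products, and no annotation was used here, so no function, role or sequence is given for any gene. In these IDs the characters after TraesCS give the chromosome and subgenome, and the number follows the order of genes along the chromosome.

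The material was roots of 4-week-old dwarf Polish wheat seedlings (Triticum polonicum, whose genome has subgenomes A and B), treated for 1 week and measured by RNA sequencing. The libraries are called here by their title codes. ACd received 80 µM CdCl2 and no iron salt, A50Cd and A200Cd received 80 µM CdCl2 with 50 or 200 µM FeCl3, A50CK and A200CK received the same FeCl3 doses alone, and ACK received neither. B200CK received 200 µM Fe2(SO4)3 alone. The other sulfate libraries carry labels that contradict each other: B50CK is described as 200 µM with cadmium, B50Cd as 50 µM without cadmium, and B200Cd as 50 µM with cadmium. Those 3 are therefore placed by their salt only. The sources used here do not say whether the base solution held iron.

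Each treatment had 1 library, although the design names 3 biological replicates, and whether that library pools them is not given. There is no spread within a treatment, so an effect of cadmium without iron salt and a deviation of the library ACd cannot be told apart. Total counts ran from 13635628 in ACK to 19320820 in ACd, the deepest library. Intervals below are exact 95% Poisson intervals and cover counting error only. In roots, more cells of a type and more RNA per cell cannot be told apart.

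How far a single library stands apart was counted by putting the 2-fold step to each library in turn. ACd stood above every other library in 60 genes (0.278% of those tested) and below every other library in 184 (0.852%). The control ACK stood apart in more genes, 565 above (2.62%) and 1060 below (4.91%). In the remaining 8 libraries the counts were 3 to 49 genes above and 2 to 105 below. Standing above all others in some genes was thus not peculiar to ACd.

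**Figure D1:**
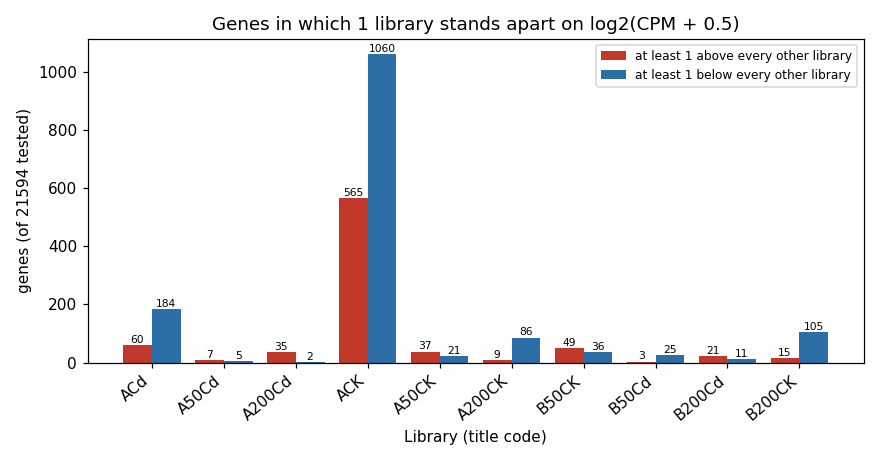
Bars give the number of genes, of 21594 tested, in which a library's log2(CPM + 0.5) was at least 1 above (red) or at least 1 below (blue) every other library; the x axis names the library by its title code. ACd has 60 and 184 genes, while ACK has 565 and 1060.

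Scaling mattered for the count. By column totals, the median gene was 0.27 higher in ACd than in A50Cd on the log2 scale and 0.17 higher than in A200Cd. Part of the 2-fold step over those libraries was thus a shift shared with other genes. Against A200CK the median gene was 0.05 higher in ACd. TMM library sizes, which centre the bulk of genes, moved the median ACd minus A50Cd difference by -0.37, to -0.10, and the medians against the 8 other libraries by 0.01 to -0.23. With TMM the rule kept 28 genes, all of them among the 57, and with DESeq2 size factors 27. These 27 were kept by both scalings. Of the 29 genes lost under TMM, 27 had a step below 1. Below, differences use column totals unless TMM is named.

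The 57 genes had a median of 38.0 CPM in ACd, with a range of 14.4 to 274.1 CPM. Their median was 7.01 CPM in A50Cd, 10.8 CPM in A200Cd and 4.84 CPM in ACK. In the other libraries it lay between 2.95 CPM (B200CK) and 9.86 CPM (B50Cd), while the median of all genes tested stayed between 14.6 and 16.9 CPM in every library. The median member was therefore below the median tested gene in 9 libraries and above it in ACd. Together they took 0.341% of the counts in ACd, 0.0677% in A50Cd, 0.0972% in A200Cd and 0.0497% in ACK. On the scale per length, which allows levels of different genes to be compared, their median was 63.9 FPKM in ACd, against 6.78 FPKM in ACK, and their range in ACd was 4.63 to 485 FPKM.

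**Figure D2:**
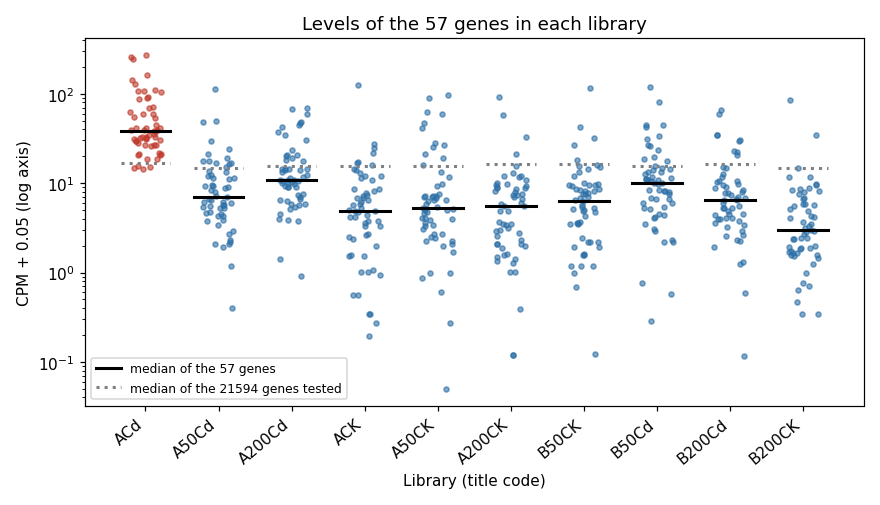
Each point is 1 of the 57 genes in 1 library, as CPM + 0.05 on a log axis; black bars are medians of the 57 genes and dotted grey bars medians of all 21594 genes tested. The median of the 57 genes is 38.0 CPM in ACd and at most 10.8 CPM in each other library.

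The height of ACd over the next library, called the margin, had a median of 1.19 on the log2 scale and a largest value of 3.22. In 43 of the 57 genes it was below 1.5, and in 5 it was 2 or more. The next highest library was most often A200Cd (16 genes) or B50Cd (14 genes), then A50CK (8), B50CK (7) and A50Cd (6). ACK was the next highest in 2 genes and the lowest of all in 11, and B200CK was the lowest in 17. ACd minus ACK had a median of 2.93, where that of all genes tested was 0.18. ACd was above ACK by at least 1 in all 57 genes, as the rule requires, and in 18.6% of genes tested (58.4% were above 0 and 12.3% at least 1 lower).

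**Figure D3:**
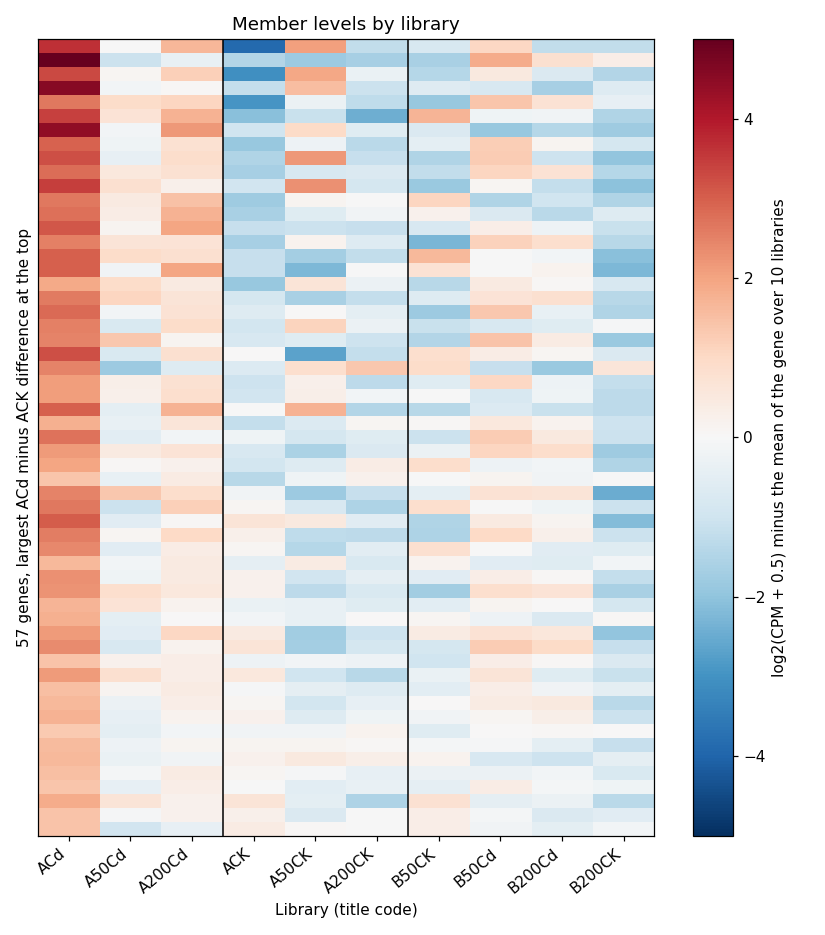
Rows are the 57 genes, ordered by the ACd minus ACK difference, and columns the 10 libraries by title code; colour is log2(CPM + 0.5) minus the gene's mean over the libraries, red above and blue below it. ACd is the reddest column throughout, and A200Cd and B50Cd are most often next.

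The widest margins belonged to TraesCS2B01G471600 and TraesCS1A01G265300. TraesCS2B01G471600 was at 58.9 CPM in ACd (95% interval 55.5 to 62.4), at 0.350 CPM in A50Cd, 0.862 CPM in A200Cd and 0.147 CPM in ACK. It had 0 counts in A50CK, where 3 counts would have been 0.165 CPM, and was at 0.0682 CPM in A200CK and 0.0714 CPM in B50CK, 1 count in each. The sulfate libraries B50Cd, B200Cd and B200CK were at 5.87, 2.61 and 1.71 CPM. Outside ACd this gene was thus below 1 CPM in all 5 libraries without sulfate, and above 1 CPM in 3 of the 4 sulfate libraries.

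TraesCS1A01G265300 was at 41.8 CPM in ACd (95% interval 39.0 to 44.8), at 1.12 CPM in A50Cd, 1.38 CPM in A200Cd and 0.293 CPM in ACK. Its next highest level was 4.67 CPM in A50CK, and it was at 0.341 CPM in A200CK. The 4 sulfate libraries held 0.0669 to 0.650 CPM. Under TMM its mean fell short of 5 CPM, so it was no longer tested.

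The other 3 genes with a margin of 2 or more differed in where they were next highest. TraesCS1A01G177500 (margin 2.41) was at 32.9 CPM in ACd, 2.24 CPM in A50Cd and 3.73 CPM in A200Cd, against 5.79 CPM in ACK, 5.17 CPM in A50CK and 2.25 CPM in A200CK. It was thus lower with cadmium and 50 µM FeCl3 than in the control, and its sulfate libraries held 0.413 to 5.11 CPM. TraesCS5B01G257700 (margin 2.38) was at 41.8 CPM in ACd and had B50CK next, at 7.64 CPM. TraesCS1B01G276200 (margin 2.28) was at 59.0 CPM in ACd and had A200Cd next, at 11.7 CPM.

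The highest CPM in ACd belonged to TraesCS3B01G471700 and TraesCS4A01G407000, which had opposite backgrounds. TraesCS3B01G471700 was at 274.1 CPM in ACd (95% interval 266.7 to 281.5), at 20.95 CPM in A50Cd and 67.95 CPM in A200Cd, against 0.953 CPM in ACK, which rested on 13 counts. Without cadmium it was at 90.2 CPM in A50CK and 8.66 CPM in A200CK, and the sulfate libraries held 12 (B50CK), 44.3 (B50Cd), 8.69 (B200Cd) and 8.68 CPM (B200CK). ACd minus ACK was 7.56, the largest among the 57 genes, but iron at 50 µM without cadmium was also 5.96 above ACK. This gene was low in the control rather than low wherever cadmium was absent.

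TraesCS4A01G407000 was well expressed in every library. It was at 254.6 CPM in ACd (95% interval 247.5 to 261.8), at 47.9 CPM in A50Cd and 70.1 CPM in A200Cd, against 124.2 CPM in ACK. A50CK and A200CK were at 96.6 and 92.8 CPM, and the sulfate libraries at 66.0 to 116.0 CPM. At both FeCl3 doses the library with cadmium was below the library without it. Its margin of 1.03 became 0.80 under TMM, so it was then no member. Per length, TraesCS4A01G407000 ranked 4 and TraesCS3B01G471700 ranked 5 of the 57 genes in ACd, at 261.1 and 251.7 FPKM.

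The highest levels per length came from shorter gene models. TraesCS7A01G368800, of 228 bp, reached 484.9 FPKM in ACd and TraesCS3A01G074600, of 231 bp, reached 306.5 FPKM. TraesCS7A01G368800 was at 110.6 CPM in ACd, 29.4 CPM in A50Cd and 30.2 CPM in A200Cd, against 5.65 CPM in ACK, 21.0 CPM in A50CK and 11.9 CPM in A200CK. Every other library but B50CK (3.43 CPM) was above ACK, up to 42.0 CPM in B50Cd. TraesCS3A01G074600 was at 70.8 CPM in ACd, 7.01 CPM in A50Cd and 23.4 CPM in A200Cd, against 6.09 CPM in ACK, 26.7 CPM in A50CK and 9.75 CPM in A200CK.

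The cadmium differences with and without FeCl3 are described next. The cadmium difference had a median of 2.93 over the 57 genes without iron salt (ACd minus ACK), of 0.33 at 50 µM FeCl3 (A50Cd minus A50CK) and of 1.20 at 200 µM (A200Cd minus A200CK). Over all genes tested these medians were 0.18, -0.11 and -0.16. At 50 µM, 17 of the 57 genes were at least 1 higher with cadmium (7.98% of genes tested) and 11 at least 1 lower (8.36% of genes tested). At 200 µM, 35 were at least 1 higher (11.4% of genes tested) and 1 was at least 1 lower (7.87% of genes tested). The rule set ACd at least 1 above ACK, A50Cd and A200Cd, which raises the median without iron salt and limits the cadmium libraries of the FeCl3 pairs. The drop of genes raised in all pairs used these differences too. Nothing is therefore read from the fall of the medians or from the shares.

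At 50 µM 36 genes were above 0 (43.2% of genes tested) and at 200 µM 51 (40.5% of genes tested).

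In 16 genes the cadmium difference was at least 1 at both FeCl3 doses (4.5% of genes tested), in 35 it was above 0 at both (26.5%), and in 5 it was below 0 at both (42.8%). Another 16 genes were lower with cadmium at 50 µM and higher with it at 200 µM (14% of genes tested), and 1 showed the reverse (16.8%). In 21 genes A50Cd and A200Cd were both at least 1 above ACK (15.5% of genes tested), and in 20 both were within 1 of it (58%). Below ACK stood 21 genes in A50Cd, 6 of them by at least 1, and 8 in A200Cd, none by at least 1. The shares of all genes tested below ACK in these libraries were not counted, so nothing is read from those counts.

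In sulfate the pairs depend on which label is used. By the title codes, 23 of the 57 genes were at least 1 higher with cadmium at 50 µM (12% of genes tested), 7 at least 1 lower (15.6%) and 37 above 0 (44.9%), with a median of 0.65. At 200 µM by the codes, 24 were at least 1 higher (9.9% of genes tested), 2 at least 1 lower (5.22%) and 47 above 0 (54.8%), with a median of 0.88. Both medians lay between those of the FeCl3 pairs, but B200CK is the only library of the 4 whose labels match, so none of these is given as a cadmium effect.

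**Figure D4:**
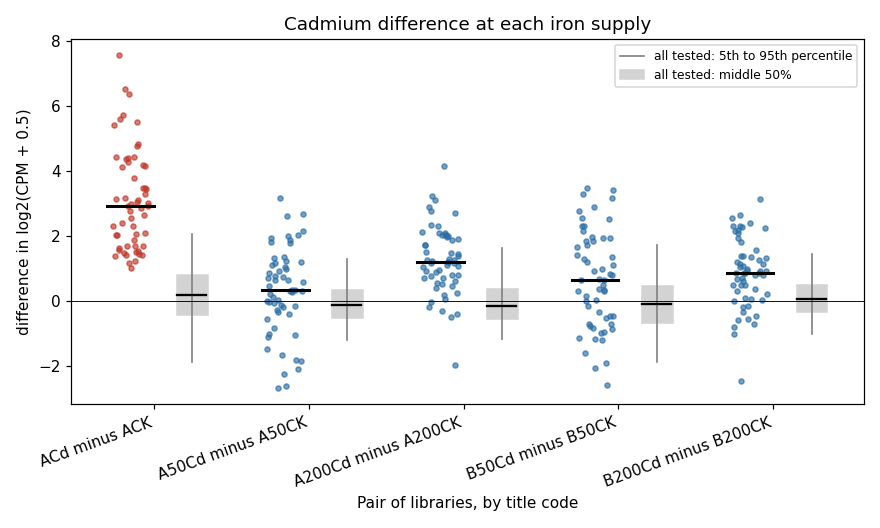
Points are the difference in log2(CPM + 0.5) between the library with and the library without cadmium, for each of the 57 genes, with pairs named by title code; black bars are medians, grey boxes the middle 50% and grey lines the 5th to 95th percentile of all 21594 genes tested. The medians of the 57 genes are 2.93 without iron salt, 0.33 and 1.20 with 50 and 200 µM FeCl3. The rule set ACd above ACK, A50Cd and A200Cd, so the fall is not a finding. The sulfate pairs rest on the title codes, which the treatment text contradicts.

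The genes with the largest mean cadmium difference in the FeCl3 pairs were TraesCS2A01G461200 and TraesCS4B01G047400. TraesCS2A01G461200 was at 32.4 CPM in ACd, 4.41 CPM in A50Cd and 9.71 CPM in A200Cd, against 0.220 CPM in ACK, 0.935 CPM in A50CK and 0.0682 CPM (1 count) in A200CK. In the sulfate libraries it was at 9.43 CPM in B50CK and 0.591 to 2.21 CPM in the other 3. Among the libraries without sulfate, those with cadmium were all above those without it.

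TraesCS4B01G047400 was at 106.9 CPM in ACd, 49.0 CPM in A50Cd and 34.6 CPM in A200Cd, against 16.6 CPM in ACK, 5.004 CPM in A50CK and 8.05 CPM in A200CK. Its sulfate libraries were at 13.2 (B50CK), 31.2 (B50Cd), 29.7 (B200Cd) and 2.95 CPM (B200CK). Cadmium libraries at each FeCl3 supply were above all 3 libraries without cadmium and without sulfate. Its margin was 0.74 under TMM, so it was a member by column totals only.

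The opposite end was held by TraesCS3A01G509800 and TraesCS4A01G407000. TraesCS3A01G509800 was at 127.6 CPM in ACd, 6.10 CPM in A50Cd and 14.4 CPM in A200Cd, against 14.0 CPM in ACK, 41.4 CPM in A50CK and 57.9 CPM in A200CK. Cadmium was thus 3.14 higher without iron salt and lower by differences of -2.67 and -1.97 at 50 and 200 µM FeCl3. Its sulfate libraries were at 42.8 CPM (B50CK), 9.86 CPM (B50Cd), 5.89 CPM (B200Cd) and 34.7 CPM (B200CK).

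In the other 3 genes below 0 at both FeCl3 doses, the differences were -0.82 and -0.49 at 50 and 200 µM in TraesCS1A01G354800, -0.32 and -0.30 in TraesCS2B01G608400, and -0.11 and -0.03 in TraesCS4B01G015900. In TraesCS4B01G015900 they turned to 0.08 and 0.20 with TMM and to 0.07 and 0.23 with DESeq2 size factors. TraesCS4B01G015900 was nearly level outside ACd, at 31.8 CPM in ACd against 5.22 to 9.57 CPM in the 9 other libraries. TraesCS2B01G561100 was the gene higher with cadmium at 50 µM, by 0.71, and below 0 at 200 µM, at -0.17, which turned to 0.05 with TMM and 0.07 with DESeq2 size factors.

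Cadmium was tested within FeCl3 supply with edgeR's quasi-likelihood test on the 4 FeCl3 libraries, with dose as a term and 1 residual degree of freedom. Of 51872 IDs, 749 passed at a Benjamini-Hochberg adjusted p of 0.05, 1.44% of those tested. Of the 57 genes, 56 were tested, since TraesCS2B01G471600 was filtered as too low in these libraries, and 7 passed. At an unadjusted p under 0.05 there were 26 of them (17.2% of all IDs tested). Because the drop step used the same differences, nothing is read from that count. For the same reason no p is given for a single member, and the fitted log2 folds are descriptions: 2.89 in TraesCS4B01G047400, 2.37 in TraesCS1B01G340200 and -2.18 in TraesCS3A01G509800. DESeq2 called 17 members and 2259 IDs (4.36% of those tested), and limma on FPKM called 4 members and 493 IDs (0.950%). With the sulfate libraries added by their treatment text, edgeR called 0 members and 0 of 50484 IDs, and 14 members and 4186 IDs had an unadjusted p under 0.05.

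Whether iron alone lowered these genes was examined without cadmium, in differences the rule did not use directly. The rule did hold each of these libraries at least 1 below ACd, and the mean of 5 CPM included ACd. The members are thus not a neutral sample of the genes tested, and their shares are descriptions. Against ACK, the median over the 57 genes was 0.03 at 50 µM FeCl3 and -0.07 at 200 µM, close to the medians of all genes tested, 0.01 and 0.13. At 50 µM 18 genes were at least 1 higher than ACK (14.7% of genes tested) and 12 at least 1 lower (10.3% of genes tested). At 200 µM 12 were at least 1 higher (19.6% of genes tested) and 9 at least 1 lower (13.3% of genes tested). Both doses were at least 1 above ACK in 9 genes (10.4% of genes tested), at least 1 below it in 6 (6.96%) and within 1 of it in 23 (59.6%). Above ACK stood 29 genes at 50 µM (50.6% of genes tested) and 27 at 200 µM (55.3%), and with TMM 28 and 19, where 48.3% and 45.6% of genes tested were above. Lower levels with iron were thus common to the 57 genes under cadmium, where the rule required it, and the median did not show it at 50 µM without cadmium. The library ACK, in which more genes stood apart than in any other, is part of each of these differences, and its part in them was not tested.

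The dose of FeCl3 gave a further difference that the rule did not use directly, though it held each of these libraries at least 1 below ACd. The same limit applies to the members' shares here. Under cadmium, 47 of the 57 genes were higher at 200 than at 50 µM FeCl3 (57.7% of genes tested), with a median difference of 0.58, where that of all genes tested was 0.07. Without cadmium 25 were higher at 200 µM (56.5% of genes tested), with a median of -0.09. Without cadmium 3 were at least 1 higher at 200 µM (6.38% of genes tested) and 14 at least 1 lower (8.27%). At least 1 higher at 200 µM under cadmium were 15 genes (2.17% of genes tested), and 1 was at least 1 lower (1.44% of genes tested). With TMM the count above 0 under cadmium was 43, where 41.8% of genes tested were above 0, and it was 22 among the 27 genes kept by both scalings. Under cadmium, most of the members were thus nearer to ACd at 200 than at 50 µM FeCl3. Each of these comparisons rests on 1 library against another.

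In 7 genes the dose differences were opposite by at least 1 each, higher at 200 µM with cadmium and lower at 200 µM without it (0.347% of genes tested). That pattern was noticed in these values and gets no test. TraesCS3B01G471700, described above, was one of them. TraesCS7B01G259700 was at 141.1 CPM in ACd, 12.1 CPM in A50Cd and 59.1 CPM in A200Cd, against 17.1 CPM in ACK, 59.1 CPM in A50CK and 5.86 CPM in A200CK. TraesCS3A01G437700 was at 162.8 CPM in ACd, 17.5 CPM in A50Cd and 37.5 CPM in A200Cd, against 1.47 CPM in ACK, 62.9 CPM in A50CK and 12.8 CPM in A200CK. Of the 7, 6 were also among the 9 genes that were at least 1 higher in A50CK than in ACK and at least 1 lower in A50Cd than in A50CK (1.82% of genes tested), and 6 were kept by both other scalings.

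**Figure D5:**
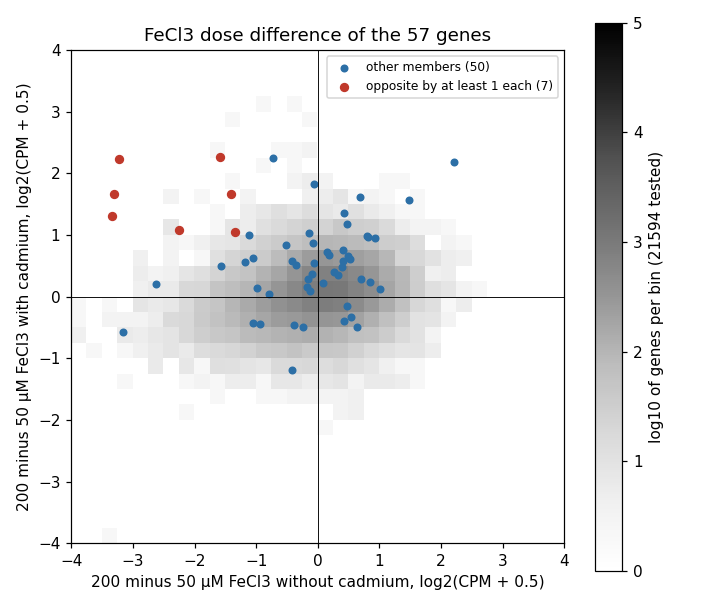
Each coloured point is 1 of the 57 genes, at its 200 minus 50 µM FeCl3 difference in log2(CPM + 0.5) without cadmium (x axis) and with cadmium (y axis); grey shading is the number of all tested genes per bin on a log10 scale, with values beyond 4 drawn at the edge. Most of the 57 genes, 47, lie above 0 on the y axis, and the 7 red genes lie at least 1 above 0 on it and at least 1 below 0 on the x axis.

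Dose was tested with edgeR on the same 4 libraries, with cadmium as a term. No gene of 51872 passed (smallest adjusted p = 0.454, 0% called), and 3502 had an unadjusted p under 0.05 (6.75% of those tested). DESeq2 called 84 genes and limma on FPKM 0. None of the 56 members tested passed, 8 had an unadjusted p under 0.05, and 27 had a fold above 0 (51.6% of all IDs tested). TraesCS1B01G340200 had the smallest p of them, with a log2 fold of 2.18 ± 0.32 (200 against 50 µM, SE, higher in 2 of 2 pairs, edgeR adjusted p = 0.735). It was at 90.6 CPM in ACd, 9.53 CPM in A50Cd and 45.03 CPM in A200Cd, against 4.69 CPM in ACK, 1.93 CPM in A50CK and 10.7 CPM in A200CK. DESeq2 called this gene for dose with an adjusted p of 0.00517. TraesCS5B01G257700 was next, at 7.41 CPM in A200Cd, against 2.17 CPM in A50Cd (log2 fold 1.962 ± 0.54, edgeR adjusted p = 0.735). Without cadmium it was at 1.5 CPM in A200CK, against 0.220 CPM in A50CK, and these values rested on 22 and 4 counts.

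Sulfate was compared with chloride in 4 libraries of each salt. The edgeR fit had no term for dose or cadmium, since the sulfate labels leave these unsettled. Differences of dose and cadmium thus count as spread between libraries in this test. The rule did not use that contrast directly, but it held each of these libraries at least 1 below ACd. Members also reached the mean of 5 CPM with ACd included, so their values beside all IDs tested are descriptions shaped by that choice. Doses were set in µM of the salt, and a unit of Fe2(SO4)3 holds more iron atoms than one of FeCl3, so form and amount of iron cannot be told apart. The summed level of the 57 genes was 344.1 to 863.5 CPM in the sulfate libraries, against 487.7 to 972.3 CPM in the chloride libraries, so the groups overlapped. With edgeR, 16 of the 57 genes had a fold above 0 (49.8% of all IDs tested), 41 had a fold below 0, and the median log2 fold was -0.18, where that of all IDs tested was -0.002. None of 50484 IDs passed (smallest adjusted p = 0.999, 0% called). At an unadjusted p under 0.05 there were 1803 IDs (3.57% of those tested), among them 9 of the 57 genes, 8 of which were lower with sulfate. DESeq2 called 17 IDs, among them 1 of the 57 genes, and limma on FPKM called 0.

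The smallest p for salt belonged to TraesCS1B01G276200 and TraesCS7B01G259700. TraesCS1B01G276200 was at 1.14 (B50CK), 0.235 (B50Cd), 0.535 (B200Cd) and 0.295 CPM (B200CK) with sulfate, against 4.89 (A50CK), 2.03 (A50Cd), 1.30 (A200CK) and 11.7 CPM (A200Cd) with chloride. The sulfate values rested on 16, 4, 8 and 5 counts in that order, and the lowest chloride value, in A200CK, on 19. The log2 fold was -3.28 ± 0.78 (SE, n = 4 libraries each, edgeR adjusted p = 0.999). TraesCS1B01G276200 reached 59.0 CPM in ACd and 0.880 CPM in ACK, and DESeq2 called it with an adjusted p of 0.0455. TraesCS7B01G259700 was at 6.29 to 10.4 CPM with sulfate, against 5.86 to 59.1 CPM with chloride, so its groups overlapped (log2 fold -2.21 ± 0.68, n = 4 libraries each, edgeR adjusted p = 0.999).

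At 200 µM without cadmium, where the labels of both salts match, 38 of the 57 genes were lower in B200CK than in A200CK, with a median difference of -0.47, where that of all genes tested was -0.20. At least 1 lower were 13 genes (7.42% of genes tested) and at least 1 higher was 1 (6.23% of genes tested). The count at least 1 lower was 9 with TMM and 7 with DESeq2 size factors. B200CK was above A200CK in 19 of the 57 genes (36.8% of genes tested), and with either of those scalings in 22, where 47.5% (TMM) and 51.7% (DESeq2) of genes tested were above. B200CK was also below ACK in 37 of the 57 genes, with a median of -0.57, and above it in 20 (48.4% of genes tested). It was at least 1 below ACK in 17 (19.9% of genes tested) and at least 1 above it in 8 (19.7%). Between the sulfate libraries with cadmium in their codes, 44 of the 57 genes were lower in B200Cd than in B50Cd, with a median of -0.31 where that of all genes tested was 0.04. There 13 were higher (54.8% of genes tested), 0 by at least 1 (3.32%), and 10 were lower by at least 1 (1.46%). By the codes that is a dose difference and by the treatment text a cadmium difference, so it is given as values of those libraries only.

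Features that the rule did not use directly were also listed. Members reached the mean of 5 CPM with ACd included, so they are not a neutral sample of the genes tested. Their positions and lengths beside all genes tested are descriptions shaped by that choice. The 57 genes lay on all 14 chromosomes of A and B, 31 on subgenome A and 26 on B, where subgenome A held 49.9% of the genes tested. Chromosome 1B held 8 of them, or 14.0% where it held 7.02% of genes tested, and chromosome 6B held 1. Gene lengths, taken from the ratio of CPM to FPKM, had a median of 766 bp, against 1259 bp over all genes tested. Of the 57 genes, 30 were shorter than 828 bp, the lower quartile of the genes tested. The 27 genes kept by both scalings had a median of 522 bp. What a shorter gene model has to do with the pattern was not tested.

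Neighbouring members were few. Of the 114 IDs next to a member, 39 were tested, and 2 of those were members themselves. Of the other 37, 9 were highest in ACd, 24.3%, where 17.0% of all genes tested were. TraesCS2B01G561000 and TraesCS2B01G561100 were next to each other in ID order. TraesCS2B01G561000 was at 26.5 CPM in ACd, 5.96 CPM in A50Cd and 5.34 CPM in A200Cd, against 1.03 CPM in ACK, 0.550 CPM in A50CK and 0.955 CPM in A200CK. TraesCS2B01G561100 was at 20.9 CPM in ACd, 5.26 CPM in A50Cd and 5.80 CPM in A200Cd, against 2.42 CPM in ACK, 3.03 CPM in A50CK and 6.61 CPM in A200CK. Both had B50CK as their next highest library, at 9.79 and 9.57 CPM, and lengths of 270.0 and 273 bp. Whether reads can be assigned between such short neighbouring gene models, or between copies on A and B, is not given, so their separate counts are uncertain.

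TraesCS1B01G381200 and TraesCS1B01G381500, 3 steps apart in ID order, were at 62.1 and 35.4 CPM in ACd. Against them stood 21.4 and 6.75 CPM in ACK, 13.5 and 6.03 CPM in A50Cd, and 20.5 and 11.4 CPM in A200Cd. Both were members under all 3 scalings. Put to other kinds of ID, the rule kept 9 of 2146 IDs with the suffix LC, 9 of 1330 IDs outside the TraesCS form and 2 of 151 unplaced IDs. Subgenome D, which dwarf Polish wheat lacks, had 395 IDs tested, and the rule kept 0 of them.

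The threshold cut through a continuous range, since 400 tested genes had a margin from 0.5 to just under 1. Just inside it stood TraesCS5A01G377600 (margin 1.00), at 20.5 CPM in ACd and 9.995 CPM in A200Cd, and TraesCS1A01G358600 (margin 1.001), at 30.2 CPM in ACd and 14.9 CPM in B50Cd. Just outside it stood TraesCS1B01G227200 (margin 0.9997), at 17.3 CPM in ACd and 8.40 CPM in B50Cd, and TraesCS7A01G416900 (margin 0.996), at 19.8 CPM in ACd and 9.69 CPM in B50Cd. The 3 genes dropped for a difference between libraries coded Cd and CK in all pairs were TraesCS1A01G374500, TraesCS3B01G451800 and TraesCS6B01G433600. They reached 34.99, 1021 and 355 CPM in ACd and were at 4.69, 237.8 and 126.3 CPM in A50Cd, against 0.733, 22.7 and 49.6 CPM in ACK.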

How the data were processed

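The submitters' processing notes list TopHat2 2.0.12 and Bowtie2 2.0.6. Not given in the sources used here are the genome build, the counter, the strand setting and any filter. The authors deposited whole-number counts per gene ID and FPKM values for 10 libraries. The deposited FPKM equal the counts scaled by a gene length and the column total, with lengths that differed by 0 bp between libraries. All rows were gene IDs. CPM were computed from column totals. The members and the choice of comparisons were made with earlier results of these data known.

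edgeR 4.0.16 (quasi-likelihood test, TMM, filterByExpr, Benjamini-Hochberg adjustment at 0.05 over all IDs tested) was fitted to the FeCl3 libraries for cadmium and dose and to all iron-fed libraries for salt. DESeq2 1.42.0 and limma 3.58.1 on log2(FPKM + 0.1) served as alternatives, under R 4.3.3. The edgeR script was tested on simulated counts with the same spread setting for every gene and only the tested term changed. That run checked the script and says nothing of error rates in these data. The standard error of a log2 fold is its size divided by √F of the quasi-likelihood test. Spread between single libraries is what the p-values measure, and nothing in the labels calls these libraries separate samples of 1 treatment.

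Named genes were, because the IDs could not be paired with products, up to 2 for each of: largest margin, highest CPM in ACd, largest and smallest mean cadmium difference in the FeCl3 pairs, nearest the threshold on either side, neighbouring members (2 pairs), and smallest p in each test. TraesCS3A01G437700, the dropped genes, those of highest FPKM and the members of counts of 5 or fewer were added after their values had been seen. No fixed list of protein families or marker genes could be matched, so none is reported, and the roots could not be checked against markers.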

Additional observations from a re-analysis of the deposited data

Results flagged for a closer look

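In TraesCS3A01G509800 and TraesCS4A01G407000 cadmium went one way without iron salt and the other way at both FeCl3 doses. TraesCS3A01G509800 had cadmium differences of -2.67 at 50 µM and -1.97 at 200 µM FeCl3, where ACd minus ACK was 3.14 on the log2 scale. TraesCS4A01G407000 had -1.01 and -0.40, where ACd minus ACK was 1.03. With TMM its differences at 50 and 200 µM FeCl3 were -0.81 and -0.16. The rule fixed ACd above ACK for every member, and both genes were chosen for small values in the FeCl3 pairs. The opposite signs thus follow in part from the choice, and the difference between supplies was not tested.

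A library far from the other 3 of its salt was looked for in 38 groups of 4 libraries and found in 2. The cutoff would flag 5% of groups of 4 replicates, which is about 1.9 here. The 4 libraries of a group received different treatments, and the genes were picked by their values. That rate need not hold here, so nothing is read from the count. TraesCS1A01G358600 was at 14.3 CPM in A200Cd, against 7.59 to 8.52 CPM in the other chloride libraries. TraesCS3B01G471700 was at 44.3 CPM in B50Cd, against 8.68 to 12 CPM in the other sulfate libraries.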

How the results depend on the processing

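The count of 57 members was 28 with TMM library sizes, 27 with DESeq2 size factors, 197 with a mean of at least 1 CPM, 26 with at least 10 CPM and 14 with a margin of 1.5. Leaving out 1 of the 9 other libraries gave 57 to 94 genes, the highest without A200Cd. Of 24 margins of named members recomputed under another scaling, 8 were below 1, the lowest of all alternatives being 0.71. Leaving out a compared library cannot lower a margin, so such margins say nothing of stability. For cadmium in FeCl3-fed roots, 749 IDs (1.44% of those tested) and 7 members became 2259 (4.36%) and 17 with DESeq2. They became 493 (0.950%) and 4 with limma on FPKM, and 4693 of 95155 (4.93%) and 19 without a filter on low counts. With the sulfate libraries added they were 1755 of 50484 (3.48%) and 11 by code, and 0 and 0 by text. At an unadjusted p under 0.05, that last fit had 4186 of 50484 IDs and 14 of 57 members. For dose, 0 of 51872 IDs became 84 with DESeq2 (1 of 56 members) and 597 of 95155 without a filter (2 of 57 members). For salt, 0 of 50484 IDs became 17 with DESeq2 (1 of 57 members), and leaving out 1 library gave 0 to 1 IDs and 0 members in each case. The cause was not tested. Of 38 dose and salt folds recomputed for the genes named by those tests, 35 kept their side of the threshold, 3 gained it and none changed sign. For cadmium and dose, leaving out a library leaves no residual degrees of freedom, so no such test was run. The cadmium test compared libraries within dose, and the dose test compared them within cadmium. The salt test had neither term. Pairing by replicate was not possible because the labels give no replicate numbers that the groups share. Depth allowed levels down to 0.155 to 0.220 CPM, the value of 3 counts.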
